A study of Mus musculus with 53 samples.

Results

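The 10 genes described here mark the cell types that line the glands and the surface of the mouse stomach. They were taken by symbol from the platform annotation of the older, 3′-type arrays, with the brightest probe set standing for each gene, and all 10 were among the 18194 genes measured there. By lineage they comprise 2 genes of zymogenic (chief) cells, 3 of parietal cells, 4 of surface mucous cells and 1 of mucous neck cells. The study profiled total RNA of mouse epithelial organs on 53 Affymetrix arrays in 18 groups, 26 arrays of the older 3′ type and 27 of the Gene ST type.

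The groups compared were stomach, proximal small intestine and esophagus, all taken at embryonic day 18.5 (E18.5), together with bladder and dorsal skin, each taken at 3 ages from E14.5 through E16.5 to E18.5. Each group had 3 arrays except E14.5 bladder, which had 2. All were labelled wild-type CB6 mice except bladder at E18.5, which came from mice heterozygous for Get1 (Get1 +/-), so every comparison with that group sets genotypes as well as organs against each other. The samples are whole organs, so fewer cells of a type and less RNA per cell cannot be told apart. The labels do not say that the replicate arrays are separate animals, so the spread behind each p-value may be technical. Small intestine WT1_3 and WT3 share the number 3 in their titles, and 2 of the E14.5 skin arrays also have like titles. All were kept as separate replicates.

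In the gastric gland, surface mucous cells secrete mucin and trefoil peptides that protect the lining, parietal cells pump acid through the H+/K+-ATPase, and zymogenic cells secrete protease precursors that acid activates. In the mouse the glandular lining forms late in gestation, and the proximal stomach, or forestomach, keeps a stratified squamous lining like that of the esophagus. Several of these genes are also used outside the stomach, for example trefoil factors in the proximal intestine and mucins in the airway.

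The RefSeq promoter table (build GRCm38.p6, from 250 bases before to 50 bases after the start of each gene) held 4 of the 10 members, namely Cym, Atp4a, Kcne2 and Gkn1, and not Pga5, Atp4b, Tff1, Tff2, Muc5ac or Ctse. One promoter each of the zymogenic, parietal and surface mucous lineages is shown, as examples of genes that were high in stomach together. Capitals mark a match to TATAAA, the TATA box, or to AGATAA, a site read by GATA factors; both strands were searched and no 2 matches overlapped. The Cym promoter lies at chr3:107221683-107221982 on the minus strand, that of Atp4a at chr7:30711959-30712258 on the plus strand and that of Gkn1 at chr6:87350866-87351165 on the minus strand.
Cym: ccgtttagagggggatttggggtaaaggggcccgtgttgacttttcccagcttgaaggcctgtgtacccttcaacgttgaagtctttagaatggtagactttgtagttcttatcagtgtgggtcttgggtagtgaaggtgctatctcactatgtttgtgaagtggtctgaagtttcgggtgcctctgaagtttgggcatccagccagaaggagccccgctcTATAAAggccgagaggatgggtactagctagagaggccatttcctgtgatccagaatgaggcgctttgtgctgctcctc
Atp4a: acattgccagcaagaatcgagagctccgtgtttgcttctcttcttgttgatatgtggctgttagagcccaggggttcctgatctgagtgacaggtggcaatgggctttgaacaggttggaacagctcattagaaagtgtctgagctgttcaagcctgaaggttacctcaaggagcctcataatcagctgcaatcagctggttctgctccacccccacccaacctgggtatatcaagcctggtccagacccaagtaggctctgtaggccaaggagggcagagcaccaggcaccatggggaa
Gkn1: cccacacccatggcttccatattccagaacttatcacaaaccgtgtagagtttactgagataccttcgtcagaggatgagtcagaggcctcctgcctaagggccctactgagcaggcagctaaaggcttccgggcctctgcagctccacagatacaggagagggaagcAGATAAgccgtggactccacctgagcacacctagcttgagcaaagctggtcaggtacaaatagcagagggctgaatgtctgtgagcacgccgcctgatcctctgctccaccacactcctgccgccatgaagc
The Cym promoter held TATAAA at position -29 from the start, and the Gkn1 promoter held AGATAA at position -82. The Atp4a window and the windows at both Kcne2 starts held neither string. Over all 32851 promoters of the table, 13.6% held TATAAA and 11.2% held AGATAA, so a match is common and describes these letters only.

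Levels are given as log2(intensity + 16) after quantile normalization within the table of 3′-type arrays, on which an intensity of 0 is 4 and the median over all genes and arrays was 6.676. A level belongs to its probe set, and levels of different genes are not compared. A gene was called when the adjusted p of limma was under 0.05 and the change was at least 2-fold.

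Before the comparisons, 2 features of the arrays bear on every value. The first is that the 26 arrays fell into 2 sets by their control probe sets, which the labels do not mention. On 17 arrays, all of stomach, esophagus, bladder and skin at E14.5, the 3′ probe set of β-actin stood 1.94 to 3.66 log2 units above the 5′ one and the BioB hybridization control read 9.94 to 11.87. On the other 9 arrays, those of small intestine and of skin at E16.5 and E18.5, the β-actin gap was 0.09 to 0.64 and BioB read 6.74 to 7.74. Stomach and small intestine lie in different sets, so organ and array set cannot be told apart between them, while stomach, esophagus and bladder share one set and small intestine and E18.5 skin share the other.

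The second is that the array labelled small intestine WT4 went against its label. Cdx1, an intestinal transcription factor, read 4.00 on it, against 11 and 11.18 on the small intestine arrays WT1_3 and WT3, and the intestinal mucin Muc2 read 5.67 on it, against 10.15 and 10.80. The mean of 16 intestinal genes was 8.41 on it, against 11.76 on WT1_3 and 11.85 on WT3, and thus lay just above the 6.8 to 8.2 of the stomach arrays. Squamous genes were high on that array. Krt5, a basal keratin, read 12.53 on it, against 4.14 and 4.45 on WT1_3 and WT3, and the cornified envelope gene Lor read 12.01, against 4.72 and 5.30. The mean level of the 10 gastric genes was 11.82 on the array labelled WT4, against 6.98 on WT1_3 and 7.63 on WT3, and in stomach it was 10.65, 11.36 and 10.99. The array did not match stomach either. Its mean over 6 liver genes was 11.12, against 6.73 on WT1_3, 8.12 on WT3 and 7.01 to 8.39 on the stomach arrays. Its mean over 15 pancreas genes was 7.41, against 9.68 on WT1_3, 8.17 on WT3 and 5.27 to 5.97 on the stomach arrays. Small intestine is therefore given with and without that array. The fit over all groups holds the array, and its standard errors are pooled. They thus include the gap between that array and the other small intestine arrays, also where other organs are compared.

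**Figure D1:**
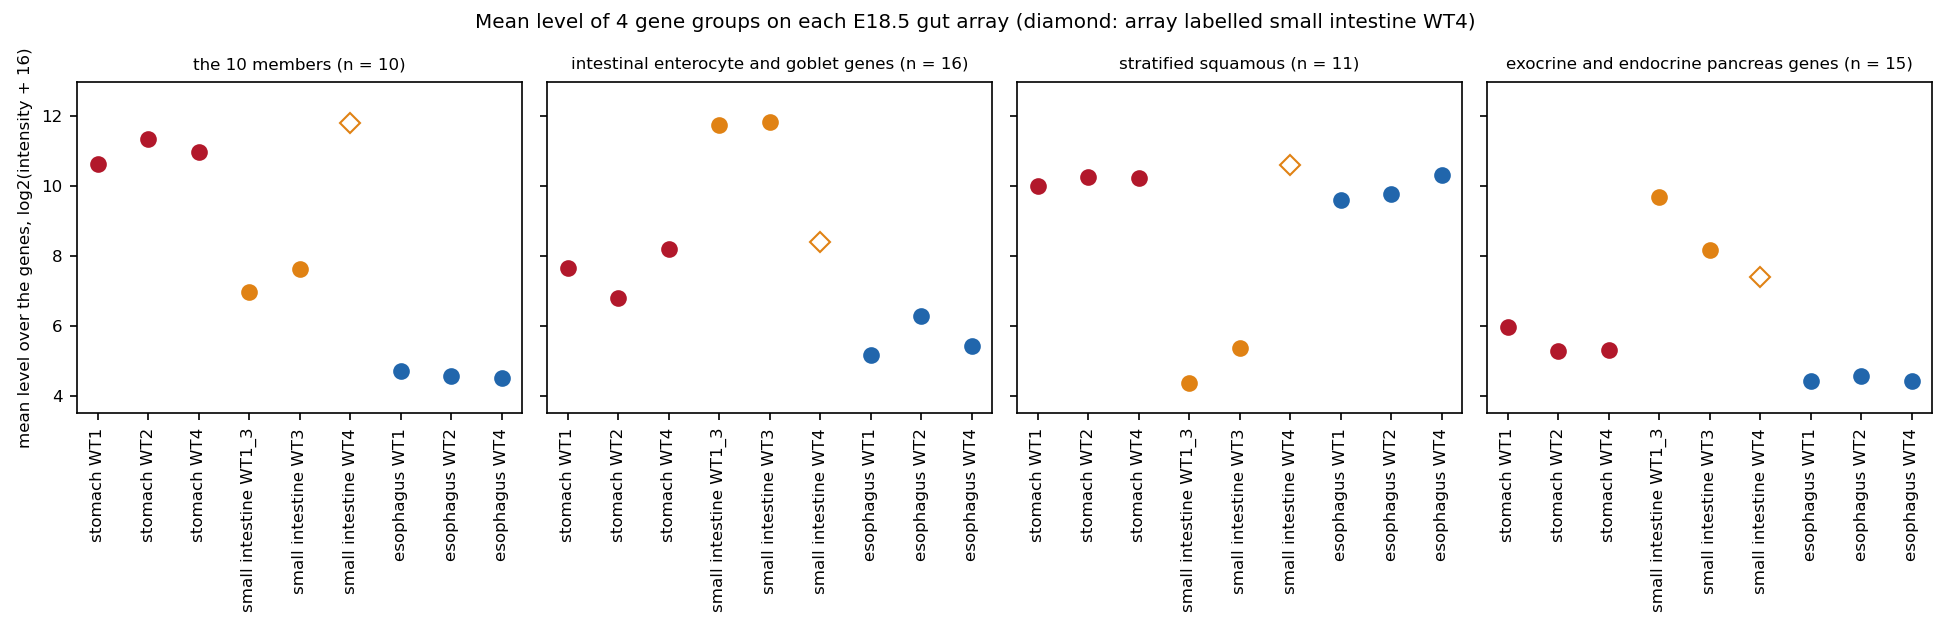
Mean level of 4 gene groups (y, log2 of intensity + 16; n is the number of genes averaged) on each E18.5 array of stomach, small intestine and esophagus; one point an array, with a diamond for the array labelled small intestine WT4. That array has a mean of 11.82 for the gastric genes and 10.6 for squamous genes, where the other small intestine arrays lie at 4.36 and 5.37 for squamous genes.

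The zymogenic genes were high on all 3 stomach arrays and low in esophagus and bladder. Pga5, a pepsinogen and so the precursor of the acid protease pepsin, was the probe set of rank 3 on each stomach array, with deposited intensities of 24805.4 on WT1, 30587.6 on WT2 and 28883.1 on WT4. Equal ranks become equal levels under quantile normalization, so its level was 14.71 on all 3 arrays and its spread there is 0 by construction. In esophagus Pga5 read 4.39, 4.08 and 4.21, and in E18.5 bladder 5.30, 4.98 and 4.87, so no array of either organ came near the stomach values. Cym encodes chymosin, a milk-clotting protease known from the stomach of suckling mammals. It read 13.40, 13.53 and 13.50 in stomach, against 5.76, 5.14 and 5.77 in esophagus and 4.03, 4.87 and 4.76 in E18.5 bladder. Pga5 was 10.48 log2 units higher in stomach than in esophagus (SE 0.771, adjusted p = 6.05e-09), and Cym was 7.92 higher (SE 0.38, adjusted p = 8.39e-12).

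The parietal genes were clearly present in fetal stomach. Atp4a, the catalytic subunit of the H+/K+-ATPase, read 8.98, 9.58 and 8.54 in stomach, against 4.30, 4.32 and 4.26 in esophagus and 4.00, 4.13 and 4.55 in E18.5 bladder. Atp4b, the glycosylated subunit of the same pump, read 9.80, 10.39 and 10.14 in stomach, against 4.12, 4.21 and 4.01 in esophagus and 4.27, 4.04 and 4.00 in bladder. Both pump genes lay at or just above an intensity of 0 in esophagus and E18.5 bladder, and no array of these organs overlapped stomach. On E14.5 skin, in the same array set, Atp4a read 4.17 to 5.15. Kcne2, an accessory subunit of the potassium channel that recycles potassium for the pump, read 11.92, 12.47 and 12.11 in stomach, against 4.29, 4.13 and 4.21 in esophagus and 4.62, 4.31 and 4.83 in bladder. Against esophagus the changes were 4.74 for Atp4a (SE 0.978, adjusted p = 0.00196), 5.99 for Atp4b (SE 0.916, adjusted p = 9.48e-05) and 7.96 for Kcne2 (SE 0.827, adjusted p = 7.84e-07). These pooled standard errors include the spread of the small intestine arrays, on which Atp4a ran from 5.25 to 11.76.

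The genes of the mucous cells split. Gkn1 encodes gastrokine 1, a secreted protein of surface mucous cells, and read 9.17, 12.32 and 11.82 in stomach, against 4.97, 4.64 and 4.42 in esophagus and 4.25, 4.12 and 4.00 in E18.5 bladder. Stomach WT1 was far below the other stomach arrays, yet above every array of esophagus, bladder and skin. Gkn2, a related gastrokine that is no member, was lowest on the same array, at 8.41 against 11.59 on WT2 and 10.31 on WT4. Tff1, the trefoil peptide of surface mucous cells, read 11.37, 12.08 and 11.86 in stomach, against 4.89, 4.63 and 4.62 in esophagus and 4.99, 4.89 and 5.16 in bladder. Tff2, the trefoil peptide of mucous neck cells, read 11.08, 11.65 and 11.25 in stomach, against 5.32, 5.45 and 4.47 in esophagus and 5.76, 5.48 and 5.55 in bladder. Both trefoil genes were far above both organs on every stomach array.

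Ctse encodes cathepsin E, an aspartic protease of surface mucous cells, and stood above esophagus in E18.5 bladder as well as in stomach. It read 10.80, 11.41 and 10.75 in stomach, against 4.25, 4.18 and 4.14 in esophagus and 7.17, 6.97 and 6.77 in E18.5 bladder. The stomach arrays were highest, the bladder arrays lay between and the esophagus arrays sat near an intensity of 0. Its other probe set did not follow this order, with means of 4.52 in stomach, 4.71 in esophagus and 4.93 in E18.5 bladder, and 9.89 in E16.5 skin, so every statement on Ctse holds for the brightest probe set only. The 2 probe sets of Gkn1 gave like group means, 11.10 and 10.41 in stomach and 4.68 and 4.21 in esophagus.

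Muc5ac, the gel-forming mucin that fills surface mucous cells of the adult stomach, was the exception. It read 5.24, 5.41 and 5.23 in stomach, against 4.88, 4.78 and 5.00 in esophagus and 5.24, 5.50 and 5.10 in E18.5 bladder. The stomach arrays lay slightly above the esophagus arrays and among the bladder arrays, below the median of the table. No array of stomach, esophagus, bladder or skin read above 5.50 for this probe set. The arrays therefore do not show whether it responds in the array set that holds stomach, and a low reading there may not mean absent RNA. Its change was 0.40 against esophagus (SE 0.969, adjusted p = 0.856) and 0.01 against bladder (SE 0.969, adjusted p = 0.996). These standard errors come from the fit over all groups, which holds the array labelled small intestine WT4, where Muc5ac read 10.42. In a fit on the 17 arrays of like control probe sets alone, the change against esophagus was 0.40 again, with an adjusted p of 0.324.

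**Figure D2:**
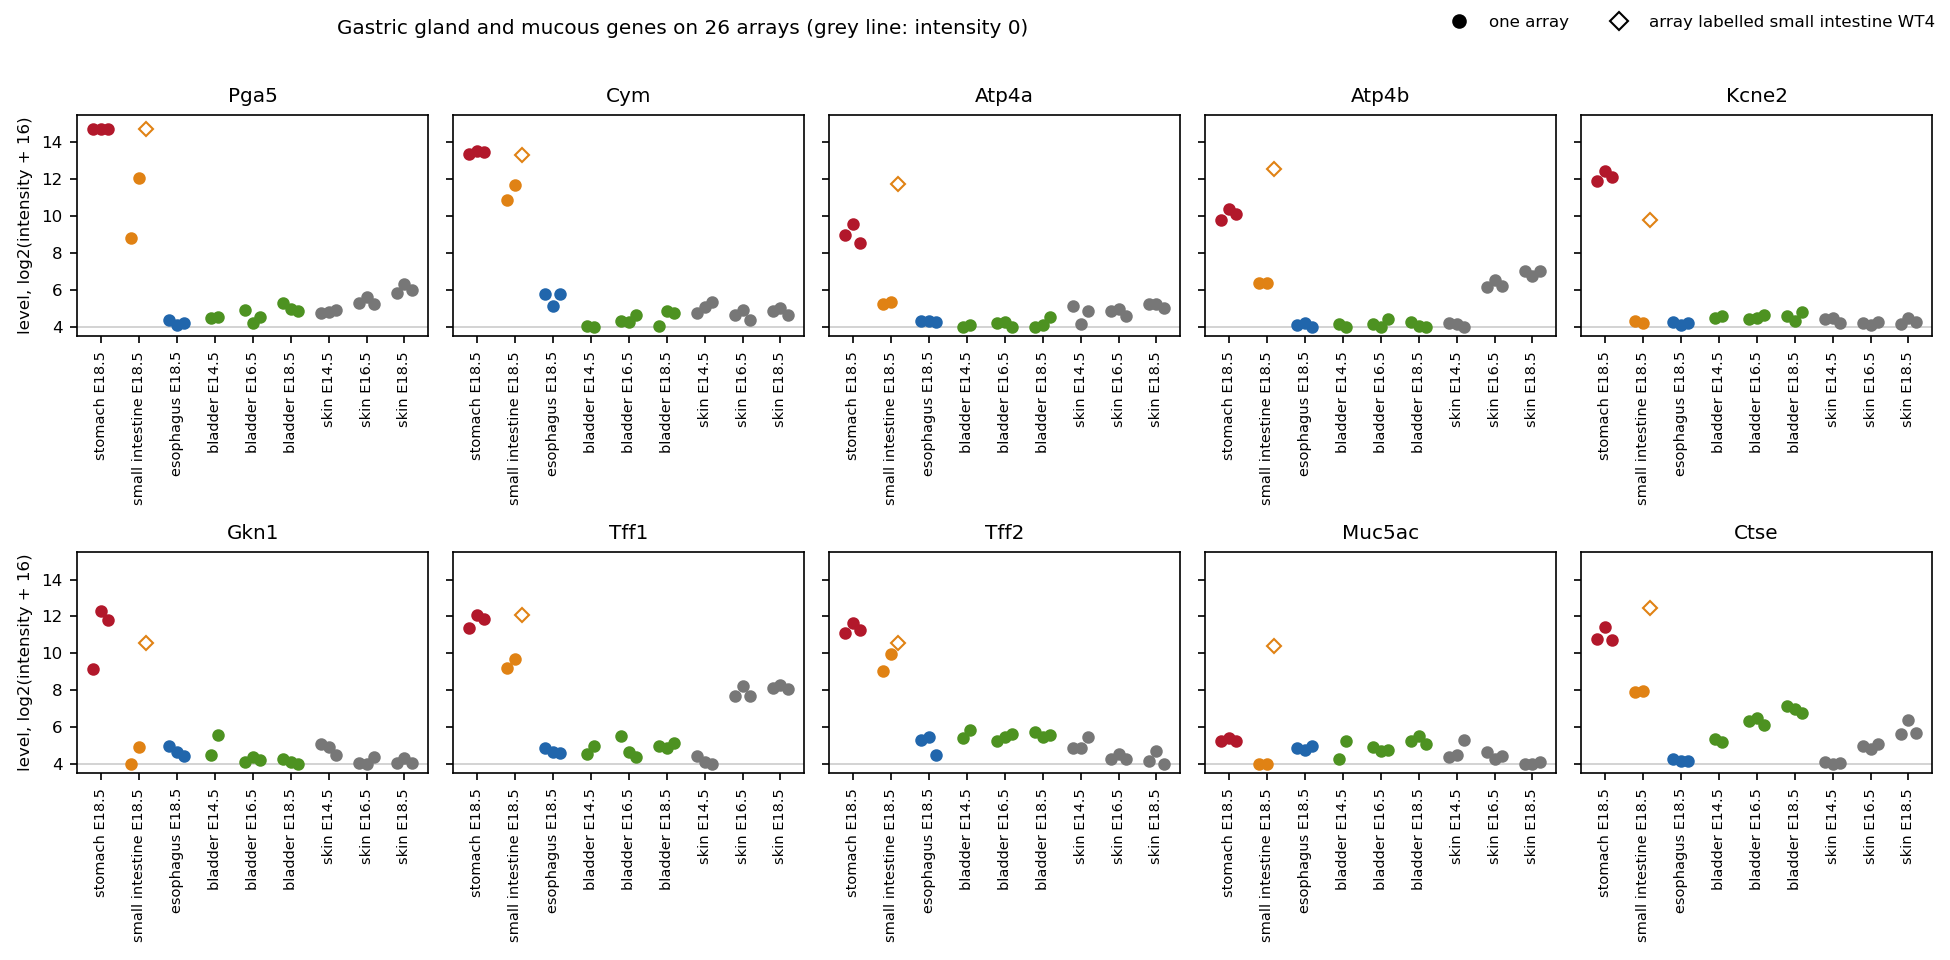
Level of each of the 10 genes (y, log2 of intensity + 16) on the 26 arrays of the 3′ type by organ and age (x), one point an array; the diamond is the array labelled small intestine WT4 and the grey line an intensity of 0. In stomach 9 of the 10 genes lie far above esophagus and bladder, whereas Muc5ac lies at 5.23 to 5.41 there and reaches 10.42 on the diamond.

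Against esophagus, 9 of the 10 genes were called higher in stomach and none was called lower, where 4.25% of all genes tested were called higher. The median change of the 10 was 6.61, and that of all genes 0.0386. Against E18.5 bladder, 9 of 10 were again called higher, where 5.03% of all genes were, with a median of 6.38 over the 10 and -0.0654 over all genes. The changes against bladder ran from 4.02 for Ctse (SE 0.691, adjusted p = 0.000231) to 9.66 for Pga5 (SE 0.771, adjusted p = 1.3e-08), leaving out Muc5ac. These 2 comparisons share the stomach arrays. Log2 changes of genes near an intensity of 0 are understated because 16 was added to each value.

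**Figure D3:**
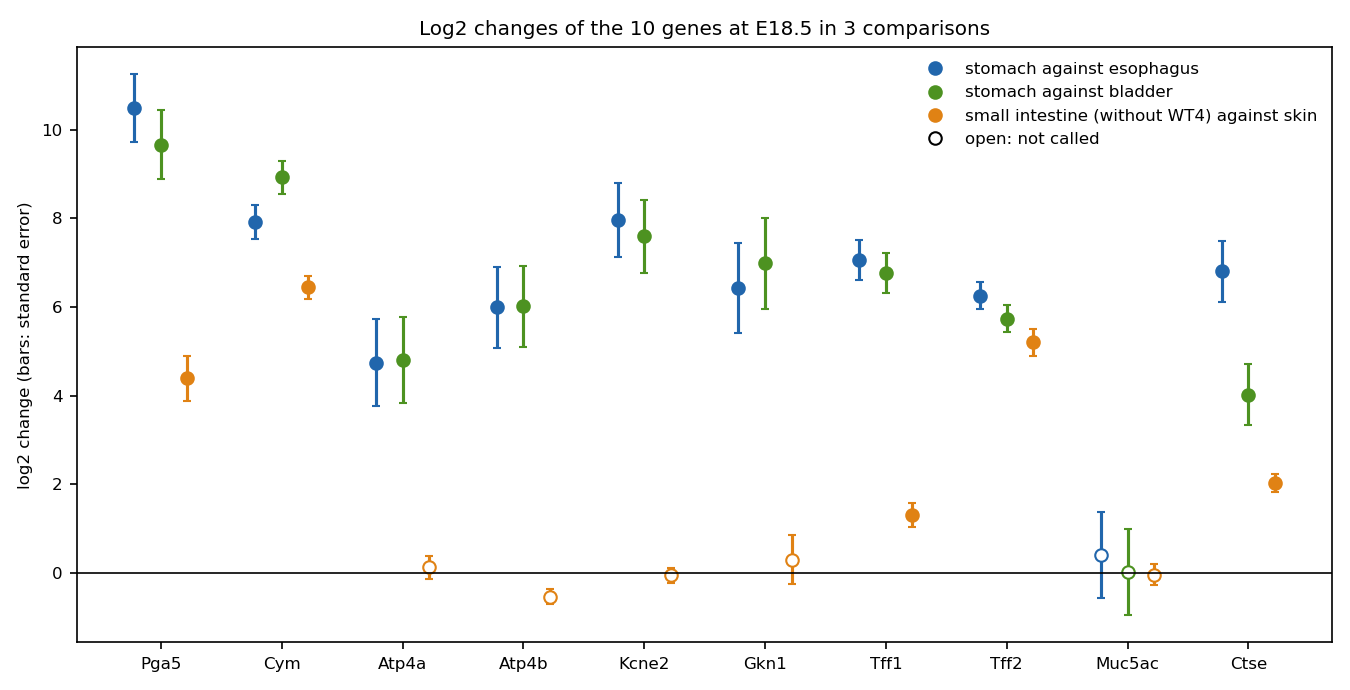
Log2 change of each gene (y, bars are standard errors) for stomach against esophagus, stomach against bladder and small intestine without the array labelled WT4 against skin, all at E18.5; open points were not called. Stomach changes run from 4.02 to 10.48 apart from Muc5ac at 0.40 and 0.01, and in small intestine 5 genes are called, Cym by the widest margin at 6.44.

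Other genes of the same cell types moved in part. The lists and the members were chosen with earlier results of these data known. Of 7 measured genes of chief and neck zymogenic cells, 4 were called higher in stomach than in esophagus and none lower. They were Cblif, the gastric intrinsic factor, at 5.71 (SE 1.06, adjusted p = 0.000734), Gkn3 at 4.63, the pepsinogen gene Pgc at 4.34 and Bhlha15, a transcription factor of secretory cells, at 3.83. The list's median change was 3.83.

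Of 16 measured parietal genes, 7 were called higher and none lower, with a median of 0.97. Kcnj16, a potassium channel, led at 5.97 (SE 0.554, adjusted p = 1.73e-07), followed by carbonic anhydrase Car2 at 4.83, the sodium-proton exchanger Slc9a2 at 3.51 and the nuclear receptor Esrrg at 3.07. The mean over the parietal list was 7.69 to 8.28 on the stomach arrays, against 6.1 to 6.23 on the esophagus arrays.

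Of 12 measured surface mucous genes, 8 were called higher and none lower, with a median of 3.58. Sult1c2, a sulfotransferase, led at 6.36 (SE 1.02, adjusted p = 0.000157), and Gkn2 at 6.10, Agr2 at 5.90, which folds secreted mucins, and Vsig1, an adhesion protein of gastric epithelium, at 5.71 followed. Of 19 measured gastric transcription factors, 8 were called higher and none lower, led by Hnf4a at 5.79, Foxa3 at 5.24, Gata4 at 3.09 and Nkx6-3 at 2.79. Of 8 gastric endocrine genes, 5 were called higher, among them the hormone genes Ghrl for ghrelin at 3.21, Gast for gastrin at 3.10 and Sst for somatostatin at 3.10. Hdc, the histamine-forming enzyme, was called lower, at -2.33.

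Markers of other tissues differed between these arrays as well. Of 16 intestinal genes, 4 were called higher in stomach than in esophagus, led by Vil1 at 3.57 and Fabp2 at 3.30, and their mean level was 6.8 to 8.2 on the stomach arrays, against 5.17 to 6.3 on the esophagus arrays. Cdx2, an intestinal transcription factor, read 9.66, 4.90 and 9.42 on the stomach arrays WT1, WT2 and WT4, while Cdx1 stayed at 4.09 to 4.29 on them. The colipase gene Clps rose by 7.69 and Cela1 by 1.45, the 2 called of 15 pancreas genes. Of 8 skeletal muscle genes, 7 were called lower in stomach, led by Myh3 at -4.62 and Mylpf at -3.76, where 2.8% of all genes were called lower. Squamous genes averaged 10.02 to 10.26 on the stomach arrays, against 9.61 to 10.31 on the esophagus arrays. Clps read 11.16, 12.46 and 11.74 on the stomach arrays WT1, WT2 and WT4. The array WT2, lowest for Cdx2 and highest for Clps, had the highest reading of each member other than Pga5, which was equal on all 3. The part of intestinal and pancreas genes in the gastric values was not tested.

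Against E18.5 bladder, 4 of 7 zymogenic, 9 of 16 parietal, 9 of 12 surface mucous and 11 of 19 transcription factor genes were called higher in stomach. The median changes of these 4 lists were 3.63, 1.62, 3.65 and 1.71. In them 1 gene was called lower, the parietal anion transporter gene Slc26a7 at -1.68. Of 8 gastric endocrine genes only 3 were called higher, led by Gast at 3.19, with a median of 0.64. Hdc was called lower again, at -1.67. Anxa10, an annexin of gastric epithelium, at 6.55 and Sox21 at 3.84 were among the leading genes there. Genes of other tissues were higher in stomach as well. Of 16 intestinal genes 9 were called higher and none lower, with a median of 2.73, led by the fatty acid binding protein genes Fabp1 at 5.09 and Fabp2 at 4.46. Of 11 squamous genes 5 were called higher, led by Sprr3 at 6.68, and Ivl was called lower, at -2.50. All 8 skeletal muscle genes were called lower in stomach, with a median of -3.11, led by Acta1 at -5.99 and Tnnt3 at -4.42, where 4.79% of all genes were called lower. Of 8 smooth muscle genes 6 were called lower, led by Des at -2.55, and of 5 urothelial genes 4, led by Upk3a at -5.13. The part of these tissues in the gastric values was not tested.

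Small intestine WT1_3 and WT3 carried a part of the gastric genes. Cym read 10.87 and 11.69 on them, and 13.31 on the array labelled WT4. Pga5 read 8.81 and 12.09, and 14.71 on the array labelled WT4. Tff2 read 9.02 and 9.99, and 10.55 on the array labelled WT4. The WT1_3 and WT3 values of these genes lay above all 6 skin arrays of the same set, which read 4.40 to 5.02 for Cym, 5.24 to 6.35 for Pga5 and 4.03 to 4.72 for Tff2.

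The 3 parietal members lay at or near the range of skin on WT1_3 and WT3. Atp4a read 5.25 and 5.34 there, against 4.62 to 5.24 on the 6 skin arrays, and 11.76 on the array labelled WT4. Atp4b read 6.39 and 6.41, against 6.19 to 7.03 on skin, and 12.54 on the array labelled WT4. Kcne2 read 4.33 and 4.19, against 4.12 to 4.50 on skin, and 9.79 on the array labelled WT4. Skin at E14.5, in the other set, read 4.02 to 4.22 for Atp4b, and age and array set cannot be told apart between those skin groups.

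Among the mucous genes, Ctse read 7.92 and 7.95 on WT1_3 and WT3, against 4.81 to 6.37 on the 6 skin arrays, and 12.46 on the array labelled WT4. Tff1 read 9.21 and 9.71, against 7.69 to 8.30 on skin, and 12.10 on the array labelled WT4. Skin at E14.5, in the other set, read 4.02 to 4.46 for Tff1. Gkn1 read 4.00 and 4.90, against 4.00 to 4.40 on skin, and 10.54 on the array labelled WT4. Muc5ac had an intensity of 0 on both WT1_3 and WT3, at a level of 4.00, and was within 4.00 to 4.63 on skin.

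The array labelled small intestine WT4 also differed from stomach within the list. Atp4a at 11.76, Atp4b at 12.54, Muc5ac at 10.42 and Ctse at 12.46 were above every stomach array, whose highest readings were 9.58, 10.39, 5.41 and 11.41. Cym at 13.31, Kcne2 at 9.79 and Tff2 at 10.55 were below every stomach array, whose lowest readings were 13.40, 11.92 and 11.08. These arrays are in different sets, so the set cannot be told apart from these differences.

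Within one array set, 5 of the 10 genes were called higher in small intestine than in E18.5 skin, where 10.2% of all genes were called higher. Without the array labelled WT4 the count was 5 again, where 11.4% of all genes were called higher, and it was the same 5 genes, Pga5, Cym, Tff1, Tff2 and Ctse. Their changes without that array were 6.44 for Cym (SE 0.266, adjusted p = 4.44e-14), 5.20 for Tff2 (SE 0.3, adjusted p = 8.28e-12), 4.39 for Pga5 (SE 0.506, adjusted p = 3.49e-07), 2.03 for Ctse (SE 0.209, adjusted p = 6.46e-08) and 1.30 for Tff1 (SE 0.273, adjusted p = 0.000547). The changes of Atp4a, Atp4b, Kcne2, Gkn1 and Muc5ac ran from -0.54 to 0.30 and none was called. All these changes rest on 2 small intestine arrays, WT1_3 and WT3. The median over the 10 was 0.801, and -0.0373 over all genes. Of the 16 genes of the parietal list, 5 were called higher without that array and 2 lower, where 10.8% of all genes were called lower. In the zymogenic list 2 of 7 were called higher and in the surface mucous list 5 of 12, with none lower in either. The Ctse call rests on its brightest probe set over 26 arrays; the other probe set had a mean of 8.07 in small intestine and 8.06 in E18.5 skin.

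Genes of other tissues differed in this comparison as well, some higher and some lower in small intestine. Of 15 pancreas genes, 12 were called higher in small intestine without the array labelled WT4 than in skin, with Cela2a, an elastase gene, at 14.13 on WT1_3 and 11.81 on WT3. Their mean was 9.68 on WT1_3 and 8.17 on WT3, while Pga5, Cym, Tff1 and Tff2 were higher on WT3 than on WT1_3. Squamous genes averaged 4.36 on WT1_3 and 5.37 on WT3, with 8 of 11 called lower than in skin, where 10.8% of all genes were called lower. Intestinal genes averaged 11.76 and 11.85, and 15 of 16 were called higher than in skin. On WT3 the squamous gene Sprr3 read 6.04, against 4.01 on WT1_3, and Gkn2 read 6.48, against 5.34. The part of adjoining tissue in the gastric readings of small intestine was not tested.

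Stomach against small intestine crosses the array sets, and 25.6% of all genes were called higher in stomach. With all arrays, 6 of the 10 genes were called higher: Kcne2 at 6.07 (SE 0.827, adjusted p = 1.54e-06), Gkn1 at 4.62, Pga5 at 2.84, Cym at 1.52, Tff2 at 1.48 and Tff1 at 1.43. Without the array labelled WT4 all 10 were called, where 27.2% of all genes were, from 1.29 for Muc5ac (SE 0.241, adjusted p = 7.77e-05) to 7.91 for Kcne2 (SE 0.17, adjusted p = 2.9e-18). Muc5ac was at -0.85 with that array (SE 0.969, adjusted p = 0.449), and at 1.09 with that array and a pseudocount of 1 (adjusted p = 0.584), so its direction turned both on 1 array and on the pseudocount. The median of the 10 was 1.56 with the array and 3.38 without it, and that of all genes 0.152 and 0.172. Within one array set Muc5ac was never called in these organs. Its change was 0.40 for stomach against esophagus and 0.01 for stomach against bladder. It was -0.04 for small intestine against E18.5 skin without the array labelled WT4. The call of Muc5ac across the sets therefore cannot be told apart from the array set.

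Without that array, 15 of 16 intestinal genes were called lower in stomach than in small intestine, where 21% of all genes were called lower. Cdx1 at -6.89, the lactase gene Lct at -6.60, Apob at -5.99 and Cdh17 at -5.96 led. All 11 squamous genes were called higher in stomach, led by Trp63 at 6.63. Clps, at 2.25, was the 1 pancreas gene called higher in stomach, while 12 of 15 were called lower.

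Small intestine against E18.5 bladder also crosses the sets, and 8 of the 10 genes were called higher, where 19.3% of all genes were. Without the array labelled WT4, 6 were called higher, where 20.1% of all genes were, and Muc5ac was called lower, at -1.28 (SE 0.241, adjusted p = 8.72e-05), where 27.5% of all genes were called lower. With that array Muc5ac was at 0.86 (adjusted p = 0.442), and at -1.06 with a pseudocount of 1 (adjusted p = 0.594). The 6 were Cym at 6.73, Pga5 at 5.40, Tff1 at 4.45, Tff2 at 3.90, Atp4b at 2.30 and Atp4a at 1.06. Against skin of their own array set, the same intestine arrays gave 0.13 for Atp4a (adjusted p = 0.766) and -0.54 for Atp4b (adjusted p = 0.0161, a change under 2-fold), by limma, and neither was called.

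Between esophagus and bladder at E18.5, 1 of the 10 genes passed the threshold. None of the 10 was called higher in esophagus by limma, where 4.85% of all genes were, and 1 had an unadjusted p under 0.05 in that direction. That gene was Cym, at 1.00 (SE 0.38, adjusted p = 0.0538), whose esophagus arrays all exceeded its bladder arrays. Without esophagus WT2 it was called, at 1.21 (adjusted p = 0.0464). Ctse was the 1 gene called lower, at -2.78 (SE 0.691, adjusted p = 0.00489), where 6.37% of all genes were called lower. The other 8 ran from -0.82 for Pga5 to 0.55 for Gkn1.

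In bladder the genes were followed over 3 ages. Ctse read 5.36 and 5.17 at E14.5, 6.34, 6.51 and 6.13 at E16.5, and 7.17, 6.97 and 6.77 at E18.5, so the ages did not overlap and the level was higher at each later age. The change between E18.5 and E14.5 was 1.70 (SE 0.773, adjusted p = 0.126) and was not called in the fit over all groups. In a fit on the 17 arrays of like control probe sets alone, it was 1.70 and called, with an adjusted p of 3.76e-05. The E18.5 bladders were Get1 +/- and the younger ones wild type, so age and genotype cannot be told apart for E18.5, while E16.5 and E14.5 share the genotype. No member was called in either direction between E18.5 and E14.5 by limma, where 6.95% of all genes were called higher and 3.53% lower, and 1 member, Ctse, had an unadjusted p under 0.05. Its second probe set, at means of 4.51, 5.49 and 4.94 at the 3 ages, did not show the same course. The other 9 changed by -0.90 to 0.54.

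Genes with the most similar pattern over the 26 arrays were found among 8057 candidates, as a description only, since the arrays share organs and sets. The mean of the zymogenic members was followed most closely by 2210407C18Rik (Pearson r = 0.989), Clps (0.974), Gcg (0.953), Gstm3 (0.948) and Ptprn2 (0.946). The mean of the parietal members was followed by Klk12 (0.982), Muc5b (0.982), Cldn18 (0.977), Sprr2i (0.974) and Sprr2j-ps (0.971). The mean of the mucous members was followed by Gkn2 (0.981), 2210407C18Rik (0.972), Bpifb1 (0.964), Slpi (0.961) and Muc5b (0.955). The mucin gene Muc5b read 12.10, 13.29 and 13.60 in stomach, and Cldn18, a claudin of stomach and lung epithelium, read 14.13, 14.13 and 13.96.

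On the Gene ST arrays, normalized apart and with a gene median of 8.119, no level was set against those of the 3′-type arrays and no test was run. The arrays labelled lung went against that label. The surfactant gene Sftpc read 6.68, 6.89 and 6.91 on them, below the table's median, and the T cell gene Cd3e read 10.95, 11.22 and 10.78, against 7.82, 7.75 and 7.76 in trachea. Muc5ac read 9.08, 8.87 and 9.55 in trachea, against 8.00 to 8.21 on the arrays labelled lung and 8.03 to 8.52 over the cornea arrays, so the trachea arrays were highest. Ctse read 8.27 to 9.13 in cornea at E14.5, where 7.43 to 7.91 was found at the 6 later ages, 8.12 to 8.49 on the arrays labelled lung and 7.28 to 7.69 in trachea. Pga5 stayed between 6.95 and 7.53 on all 27 arrays, and Atp4b between 6.67 and 7.87. None of the 10 genes other than Muc5ac and Ctse exceeded 8.95 on a Gene ST array.

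**Figure D4:**
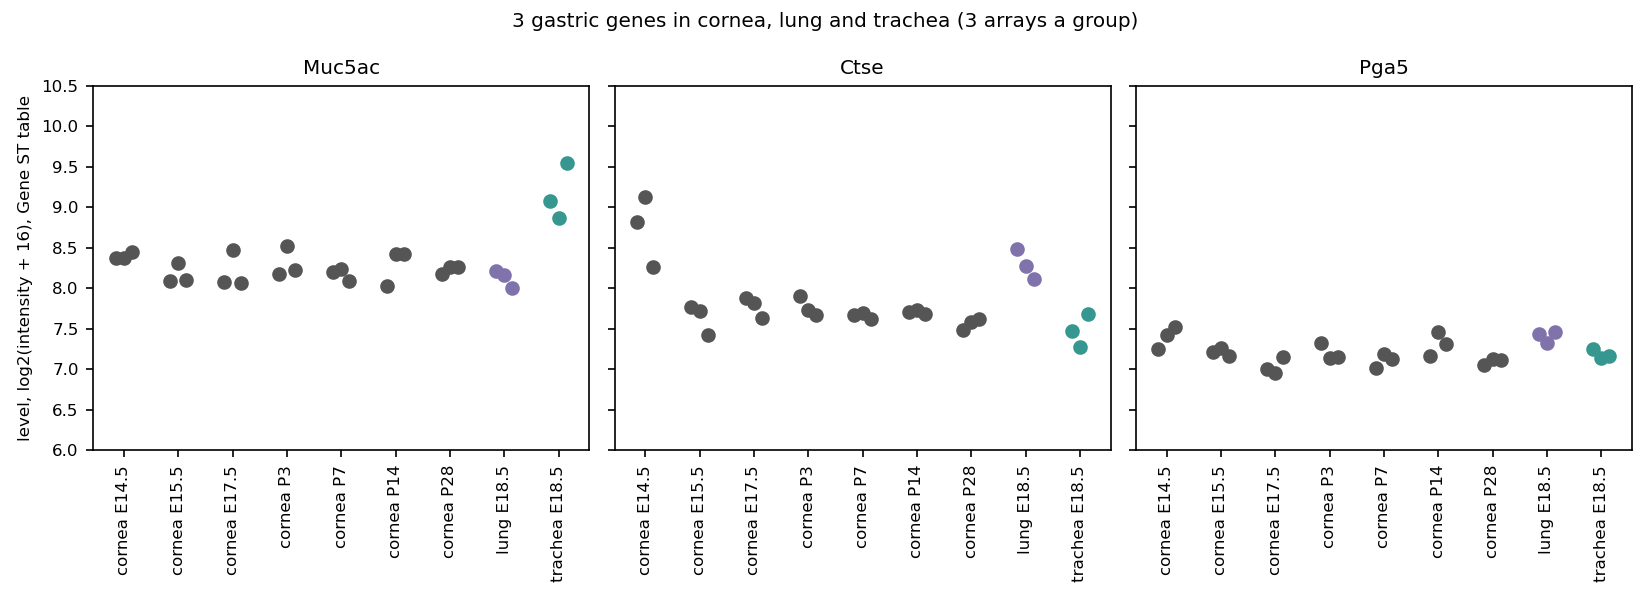
Levels of Muc5ac, Ctse and Pga5 (y, log2 of intensity + 16 within the Gene ST table) in cornea at 7 ages, on arrays labelled lung and in trachea (x), one point an array. Muc5ac is highest in trachea, at 8.87 to 9.55, Ctse is highest in E14.5 cornea, and Pga5 stays between 6.95 and 7.53.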

How the data were processed

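Probe set intensity values on a linear scale were deposited by the authors for 26 arrays of the older 3′ type and 27 of the Gene ST type. The submitters' processing notes name Affymetrix Expression Console 1.1.1 and PLIER 2.0, but the authors' normalization between arrays is not given in the sources. From these, log2(intensity + 16) was quantile-normalized within each table in R 4.3.3. Gene symbols came from the platform annotation and were brought up to date through RefSeq; on the 3′ type, 34958 of 45101 had 1 gene, 932 several and 9211 none. The probe set with the highest mean over all arrays stood for its gene. limma 3.58.1 (lmFit, eBayes) was fitted over all 9 groups on the 3′ type, two-sided, with Benjamini-Hochberg adjustment over 18194 genes, and was tested on simulated data. Members and gene lists were chosen with earlier results of these data known. All members were named, with up to 4 called genes of largest change from each list, and the 5 genes most correlated with each lineage; genes given to check the labels, and Slc26a7 and Ivl, were chosen after their values were seen. Stomach and esophagus arrays of the same WT number were not paired, since the number is not said to mark a shared embryo. Their deviations from the group means correlated at 0.064, 0.088 and 0.13 for like numbers, and at -0.107 to 0.04 for unlike numbers. Deviations within a group sum to 0, so like and unlike values depend on each other and cannot show a shared embryo. WT4, which gave the 0.13, had the widest β-actin gap of its organ in both, 3.66 in stomach and 3.33 in esophagus. The part of that gap in the correlation was not tested. Comparisons of small intestine with skin and of bladder ages were added after seeing the data. The number of arrays limits the precision. Esophagus, bladder and skin served as background organs.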

Additional observations from a re-analysis of the deposited data

How the results depend on the processing

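The alternatives were values as deposited, a pseudocount of 1, the mean or the second-brightest probe set, genes above the table median, no fold limit, limma's trend and robust options, only the groups compared, a replicate block and, added after seeing the data, only arrays with like control probe sets. Of the values of single genes, 870 kept their direction and side of the threshold, 27 lost the call, 23 gained it and 27 changed direction. Counts of members below are of those called higher. In stomach against esophagus and against bladder, 9 members stayed called higher when any 1 array was left out. With arrays left out in turn, the count was 4 to 10 for stomach against small intestine, 6 to 9 for small intestine against bladder, 0 to 1 for esophagus against bladder (Cym, without esophagus WT2, beside Ctse called lower throughout), 5 to 10 for small intestine against skin (10 without WT1_3 or without WT3, 5 without WT4) and 0 for bladder ages; all-gene counts then ran over 1087 to 1285 and 1631 to 1889 for stomach against esophagus and bladder, 7991 to 8775 and 8050 to 8657 for the 2 comparisons across sets, 1853 to 2209, 3175 to 4052 and 1482 to 2083 for the last 3. With the WT number as a replicate block, 9 members and 1086 genes were called between stomach and esophagus, against 9 and 1283 without it.

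With only the groups compared, fewer arrays set the spread, and the count of all genes is given for small intestine against skin only. Member counts in that setting are therefore a description and no result about the members. There, 2 members were called for stomach against small intestine, 4 for small intestine against bladder, 3 for small intestine against skin (2324 genes, against 3500), 1 for esophagus against bladder and 1 for bladder ages. Only arrays with like control probe sets gave 1 and 1 for the last 2, and values as deposited and a pseudocount of 1 gave 1 for esophagus against bladder; Cym was the gene called higher there in each of these settings, and Ctse was called lower in each. The second-brightest probe set, which 2 members have, gave 1, 1, 1, 2 and 0 members for stomach against esophagus, small intestine and bladder and small intestine against bladder and skin. Genes called, with fewer genes tested, were then 395, 4078, 604, 4000 and 1365, with 828 for esophagus against bladder and 869 for bladder ages, against 1283, 8292, 1786, 8231, 3500, 2041 and 1907. With no fold limit 2612 were called for stomach against esophagus, 4269 for stomach against bladder, 5148 for esophagus against bladder, 6749 for small intestine against skin and 3996 for bladder ages. Above the table median 1332 were called for esophagus against bladder and 1111 for bladder ages. Ctse reversed with its second probe set in stomach, at -0.20 against esophagus, -3.55 against small intestine and -0.42 against bladder, and with the mean of both at -1.01 against small intestine. With arrays left out in turn, Muc5ac ran from -1.92 to 1.29 for stomach against small intestine and from -1.28 to 1.93 for small intestine against bladder, reversing to 1.29 and -1.28 without WT4; a pseudocount of 1 with all arrays also reversed it, at 1.09 and -1.06. For small intestine against skin, Atp4b ran from -0.54 to 2.54, Kcne2 from -0.05 to 2.75 and Muc5ac from -0.04 to 3.17, and for small intestine against bladder Kcne2 ran from -0.32 to 2.48, each below 0 without WT4. Changes near 0 that were never called also changed direction: with arrays left out, Muc5ac ran from -0.08 to 0.12 for stomach against bladder, Atp4a from -0.05 to 0.23 and Atp4b from -0.04 to 0.09 for esophagus against bladder, and Atp4b from -0.06 to 0.1, Kcne2 from -0.07 to 0.19 and Tff2 from -0.27 to 0.18 for bladder ages; values as deposited gave -0.05 for Atp4b and -0.15 for Kcne2 there, and the second-brightest probe set gave -0.06 for Gkn1 in esophagus against bladder. The cause was not tested. With the 9 arrays of like control probe sets alone, Ctse was at 0.01 for small intestine against skin, since its other probe set was then the brightest.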
